A study of Rattus norvegicus with 12 samples.

Results

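The 7 genes for the subunits of the NMDA receptor (*Grin1*, *Grin2a*, *Grin2b*, *Grin2c*, *Grin2d*, *Grin3a* and *Grin3b*) were followed through RNA sequencing of rat striatum. They were chosen by gene symbol, and all 7 were found among the 17337 genes of the count table. The tissue came from 12 adult male Sprague–Dawley rats, wild type and, by their labels, treated with methamphetamine (MA). The labels place all 12 after 16 days of MA self-administration, in which rats pressed a lever to infuse the drug. The MA12 group (rats 21, 31, 4N and 7N) was killed at 12 h of abstinence, and the MA24 group (rats 9N, 14N, 15N and 16N) at 24 h. Both abstinence groups were drawn at random from rats whose lever pressing had become stable. A further 4 rats (9, 11, 12 and 13) carry the label non-addicted after the same 16 days, and neither how they were classed nor when they were killed is given in the sources used here. By these labels every group had taken MA, and no rat is labelled saline. The study describes saline, MA, 12 h and 24 h groups and no non-addicted one, so MA intake by these 4 rats rests on the label alone. An N follows the rat number in all of MA24, in 2 of the 4 MA12 rats and in no non-addicted rat, and what it marks is not stated.

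NMDA receptors are glutamate-gated cation channels that let calcium into neurons and also need glycine or D-serine to open. Every receptor contains GluN1, the product of *Grin1*, joined with GluN2 subunits (*Grin2a* to *Grin2d*) or GluN3 subunits (*Grin3a*, *Grin3b*), and the partner sets how fast the channel closes and how strongly magnesium blocks it. In the striatum these receptors receive the glutamate released by cortical and thalamic axons onto the projection neurons, where GluN2A and GluN2B are the main GluN2 subunits.

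*Grin2a* and *Grin2b* were lower in MA24 than in MA12 rats, by log2 fold changes (log2FC) of −1.25 and −0.79, and no rat of one group overlapped with the other group. *Grin1* and the remaining 4 subunit genes did not pass the thresholds in any comparison. The non-addicted rats had mean levels of *Grin2a* and *Grin2b* between those of the abstinence groups, and neither gene passed the thresholds against either of them.

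**Figure D1:**
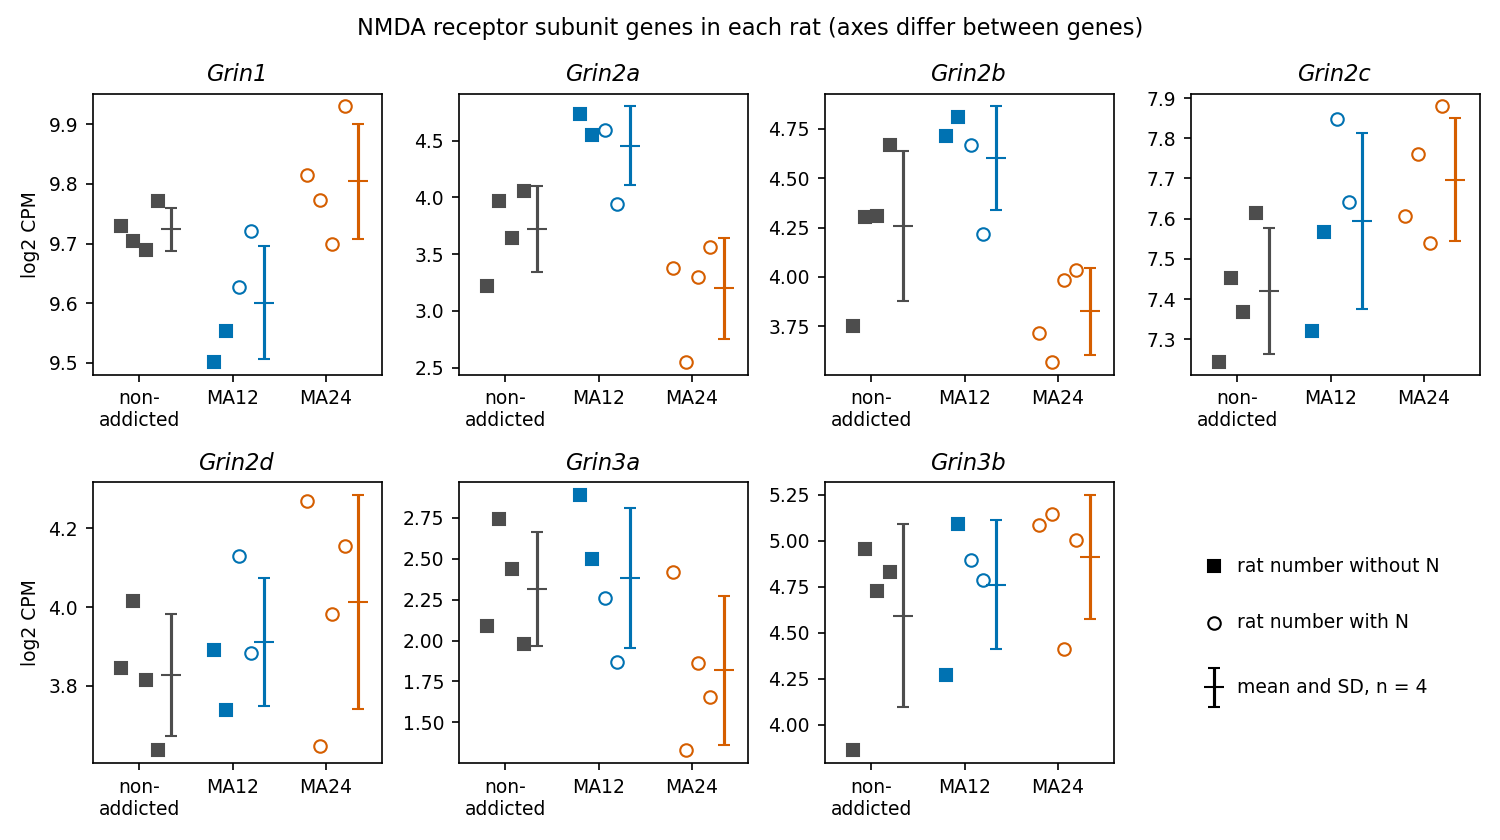
Level of each subunit gene in each rat, in log2 CPM (counts relative to library size), by group. Filled squares are rats numbered without N, open circles rats numbered with N, and the bars give the mean and SD of 4 rats. The MA24 rats lie below all MA12 rats for *Grin2a* and *Grin2b*, and the groups overlap for the other genes.

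Levels are given as log2 CPM, the log2 of counts relative to the scaled size of the library. A count also depends on transcript length, which was not used here, so levels are compared between rats for 1 gene and not between genes.

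*Grin1*, the obligatory subunit, had 16307 to 20122 counts in non-addicted rats, 14955 to 17989 in MA12 and 16186 to 20951 in MA24. Its log2 CPM was 9.73, 9.70, 9.69 and 9.77 in non-addicted rats 9, 11, 12 and 13. In MA12 rats 21, 31, 4N and 7N it was 9.50, 9.55, 9.63 and 9.72, and in MA24 rats 9N, 14N, 15N and 16N it was 9.82, 9.77, 9.70 and 9.93. The 2 MA12 rats numbered without N lay lowest, and MA12 rat 7N lay above the lowest MA24 rat, so the groups overlapped.

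*Grin2a* encodes GluN2A, the subunit of fast-closing receptors that becomes common as synapses mature. Its counts were 628, 557, 511 and 271 in MA12 rats 21, 31, 4N and 7N, and 240, 117, 190 and 222 in MA24 rats 9N, 14N, 15N and 16N. The corresponding log2 CPM was 4.73, 4.55, 4.59 and 3.94 in MA12 and 3.38, 2.55, 3.30 and 3.56 in MA24. Rat 7N was the lowest of MA12 yet above every MA24 rat, and rat 14N was the lowest of all 12. In non-addicted rats 9, 11, 12 and 13 the counts were 177, 315, 303 and 318, with log2 CPM of 3.22, 3.97, 3.65 and 4.06. These values overlapped with both abstinence groups. The group means ran from 4.45 ± 0.35 in MA12 through 3.72 ± 0.38 in non-addicted to 3.20 ± 0.44 in MA24 (SD, n = 4 each), and of the neighbors in this order neither pair differed past the thresholds.

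*Grin2b* encodes GluN2B, which closes more slowly and binds CaMKII, the calcium-dependent kinase of the synapse. It had 621, 668, 538 and 328 counts in the MA12 rats, in the order above, and 303, 239, 306 and 309 in the MA24 rats. On the log2 CPM scale these were 4.71, 4.81, 4.67 and 4.22 in MA12 and 3.71, 3.57, 3.98 and 4.04 in MA24. As for *Grin2a*, rat 7N was the lowest MA12 rat, rat 14N the lowest MA24 rat, and the groups did not overlap. Non-addicted rats 9, 11, 12 and 13 had 257, 399, 481 and 487 counts, or 3.75, 4.31, 4.31 and 4.67 in log2 CPM, with rat 9 inside the MA24 range and the other 3 inside the MA12 range. The means were 4.60 ± 0.26 in MA12, 4.26 ± 0.38 in non-addicted and 3.83 ± 0.22 in MA24 (SD, n = 4 each).

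*Grin2c* and *Grin2d* encode the subunits best known from cerebellar granule cells and from interneurons and the early brain, respectively. *Grin2c* had mean log2 CPM of 7.42 ± 0.16 in non-addicted, 7.59 ± 0.22 in MA12 and 7.70 ± 0.15 in MA24 (SD, n = 4 each), from 2909 to 4899 counts per rat. For *Grin2d* the means were 3.83 ± 0.16, 3.91 ± 0.16 and 4.01 ± 0.27 in the same order, from 237 to 446 counts per rat. Neither gene separated any pair of groups.

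*Grin3a* and *Grin3b* encode the GluN3 subunits, which bind glycine and lower calcium entry. *Grin3a* had the fewest counts of the 7 genes, 49 to 174 per rat, and its log2 CPM was 2.89, 2.50, 2.26 and 1.87 in MA12 rats 21, 31, 4N and 7N. In MA24 it was 2.42, 1.33, 1.86 and 1.66 in rats 9N, 14N, 15N and 16N, and in the non-addicted rats it was 2.09, 2.74, 2.44 and 1.98. Rat 14N was again the lowest of all, while rat 9N lay among the MA12 rats. *Grin3b* had 277 to 812 counts per rat and means of 4.59 ± 0.50 in non-addicted, 4.76 ± 0.35 in MA12 and 4.91 ± 0.34 in MA24 (SD, n = 4 each). Non-addicted rat 9 was lowest for this gene at 3.86, and the groups overlapped in every pair.

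To ask what differed between 12 and 24 h of abstinence, MA24 was compared with MA12. A gene was called different where its p-value from edgeR's quasi-likelihood test, adjusted by Benjamini-Hochberg over all genes tested, was below 0.05 and its fold change was at least 1.5. Of the 7 subunit genes, 6 entered the test, and 2 of the 6 were called, both lower, where 2.25% of the 10754 genes tested were called with 1.58% lower and 0.67% higher. *Grin2a* fell by 1.25 on the log2 scale (SE 0.20, 95% interval −1.66 to −0.83, adjusted p = 0.00903), to 0.42 times its MA12 level (interval 0.32 to 0.56). *Grin2b* fell by 0.79 (SE 0.15, interval −1.10 to −0.48, adjusted p = 0.0110), to 0.58 times its MA12 level (interval 0.47 to 0.72). Both genes were lower in 4 of 4 MA24 rats than in any MA12 rat, and groups did not overlap for 15.0% of all genes tested, 8.87% in this direction.

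The other 5 subunit genes were not called between MA24 and MA12. *Grin3a* had the next lowest log2FC, −0.57 (SE 0.28, interval −1.15 to 0.02, adjusted p = 0.229 by edgeR), which leaves room for a fall as large as that of *Grin2b*. *Grin2c*, *Grin2d* and *Grin3b* had log2FC of 0.10, 0.12 and 0.15, with intervals of −0.14 to 0.34, −0.19 to 0.43 and −0.20 to 0.50. *Grin1* varied too little to pass the variance filter, and the fit without that filter gave 0.20 (SE 0.08, interval 0.04 to 0.37, adjusted p = 0.136 by edgeR). All 4 of these intervals lie within 1.5-fold (0.585 on the log2 scale) of no difference. The median log2FC of all genes tested was −0.04, and the median over the 6 tested subunit genes was −0.23, with 3 below 0 and 3 above.

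**Figure D2:**
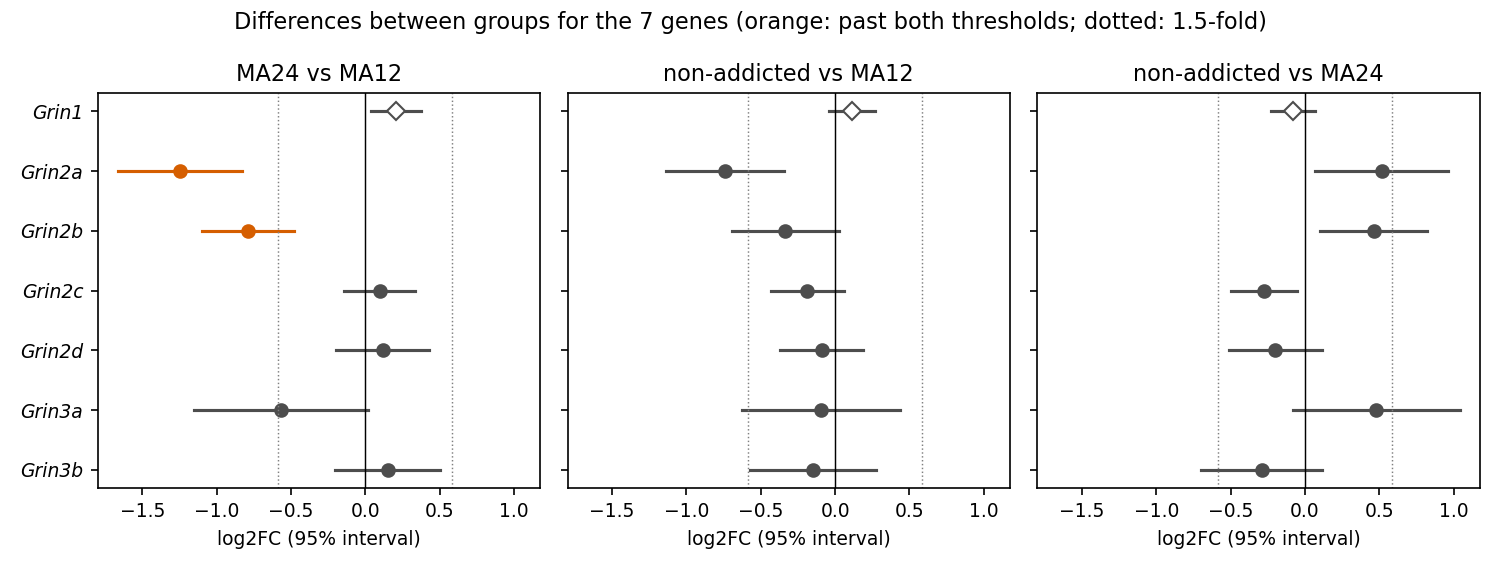
The log2FC of each subunit gene (x axis, point) with its 95% interval (line) in the 3 comparisons. Orange marks genes past both thresholds, dotted lines mark 1.5-fold, and diamonds mark *Grin1*, taken from the fit without the variance filter. *Grin2a* at −1.25 and *Grin2b* at −0.79 in MA24 vs. MA12 are the called values.

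The kind of rat number moved with this comparison, since rats 21 and 31 of MA12 were the ones without an N. Among rats numbered with N alone, 2 MA12 against 4 MA24, the MA12 values of *Grin2a* (4.59 and 3.94) and *Grin2b* (4.67 and 4.22) still lay above every MA24 value. In that fit the log2FC was −1.07 for *Grin2a* (adjusted p = 0.0215 by edgeR), which remained called, and −0.62 for *Grin2b* (adjusted p = 0.101), which was not. With the kind of number as a covariate the log2FC was −1.07 (adjusted p = 0.0509 by edgeR) and −0.63 (adjusted p = 0.109), and neither gene was called. Leaving out any 1 of the 8 rats kept both genes called, with log2FC from −1.39 to −1.07 for *Grin2a* and from −0.90 to −0.71 for *Grin2b*.

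Clock genes also moved with this comparison, and they were listed after their results were known. Of 13 in the table, 11 were tested, 3 were called higher in MA24 (*Per2*, *Dbp* and *Ciart*) and 1 lower (*Arntl*), with log2FC over the 11 genes from −0.61 to 0.98. Of all genes tested, 0.67% were called higher and 1.58% lower. Against MA12, the non-addicted rats differed in the same list, with *Per2* and *Per3* called higher and *Arntl* lower of 12 tested. In that comparison 0.121% of all genes were called. Against MA24 none of 10 tested clock genes was called, where 0.335% of all genes were. The abstinence groups were killed 12 h apart in abstinence, and the clock time of collection is not given in the sources used here, so time of day and length of abstinence cannot be told apart for the subunit genes. The time of collection of the non-addicted rats is not given either.

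*Grin2a*, *Grin2b* and *Grin3a* are long genes, and *Grin1*, *Grin2c*, *Grin2d* and *Grin3b* are compact ones. In MA24 vs. MA12 the 3 long genes had log2FC of −1.25, −0.79 and −0.57 and the 4 compact genes lay between 0.10 and 0.20. Against MA24, the non-addicted rats had 0.52, 0.46 and 0.48 for the long genes and −0.29 to −0.08 for the compact ones. Against MA12 the split did not hold. There the long genes had −0.74, −0.33 and −0.10 and the compact ones −0.19 to 0.11, so *Grin3a* lay among the compact genes. Gene lengths of rn6 were not used here and no relation of log2FC with length over all genes is reported, so a change in *Grin2a* and *Grin2b* cannot be told apart from one shared by long genes.

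**Figure D3:**
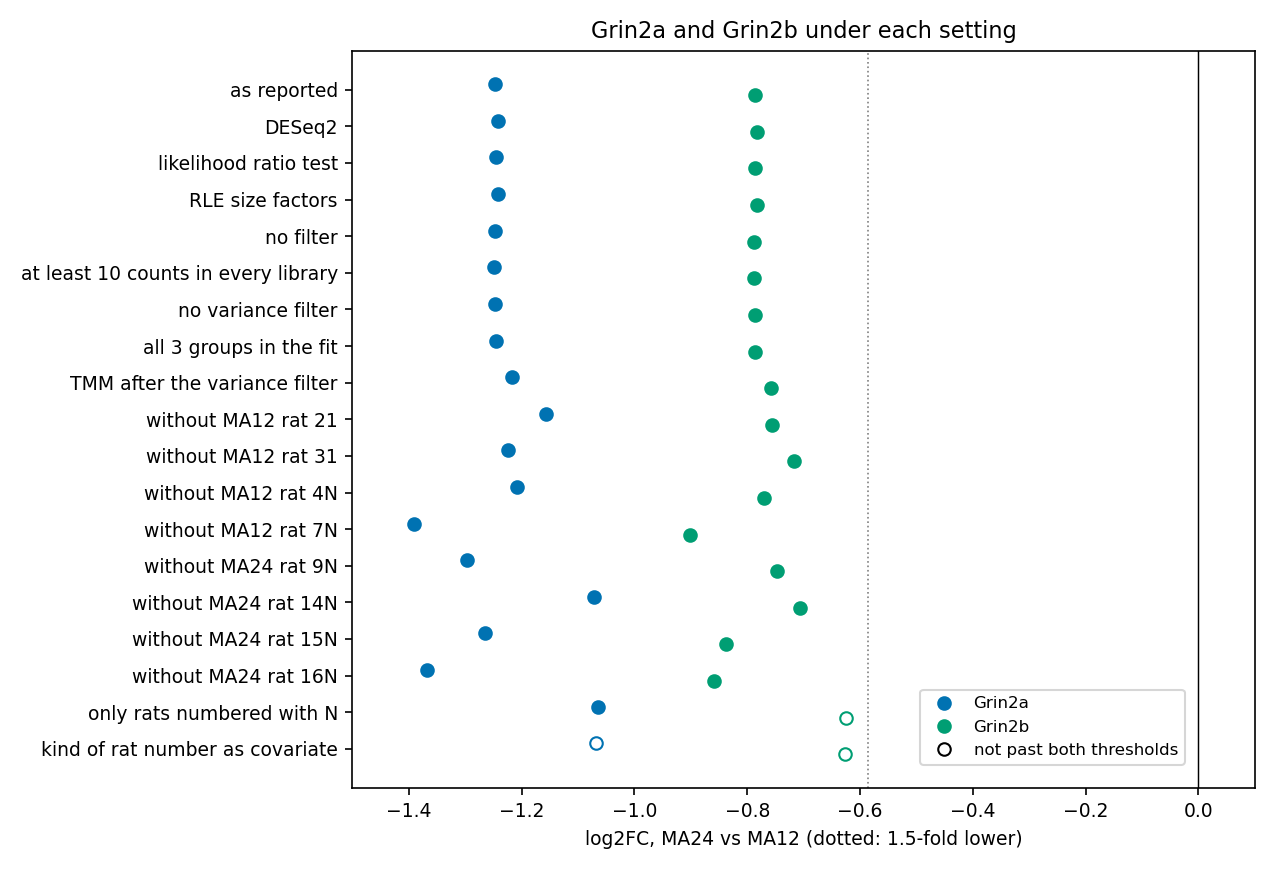
The log2FC of *Grin2a* (blue) and *Grin2b* (green) in MA24 vs. MA12 as reported and under each other setting of the analysis (rows). Open circles are values not past both thresholds, and they occur in the bottom 2 rows, where the kind of rat number was taken into account.

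The non-addicted rats were then compared with each abstinence group, so the 3 comparisons share rats and are given side by side. Against MA12, none of the 6 subunit genes tested was called by edgeR, where 0.121% of 10758 genes were called. At an unadjusted p below 0.05 there was 1 subunit gene, *Grin2a*, and 12.6% of all genes. Its log2FC was −0.74 (SE 0.19, interval −1.14 to −0.34, adjusted p = 0.127), and the 4 non-addicted values overlapped with MA12 through rat 7N. Without rat 7N the log2FC was −0.88 (adjusted p = 0.0249 by edgeR) and the gene was called. It was also called by DESeq2 (−0.73, adjusted p = 0.0228), by edgeR's likelihood ratio test (−0.74, adjusted p = 0.0207) and with only rats numbered without N, 4 non-addicted against 2 MA12 (−0.89, adjusted p = 0.029). Over all settings the adjusted p of this value ran from 0.0207 to 0.28.

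The remaining values against MA12 were smaller. *Grin2b* had a log2FC of −0.33 (SE 0.17, interval −0.69 to 0.02, adjusted p = 0.436 by edgeR). *Grin1* had 0.11 in the fit without the variance filter, and *Grin2c*, *Grin2d*, *Grin3a* and *Grin3b* had −0.19, −0.09, −0.10 and −0.15. The signs of *Grin2d*, *Grin3a* and *Grin3b* turned under at least 1 other setting, and their intervals spanned 0.

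Against MA24, none of the 6 subunit genes tested was called either, where 0.335% of 10744 genes were called. At an unadjusted p below 0.05 there were 3 subunit genes, *Grin2a*, *Grin2b* and *Grin2c*, and 17.5% of all genes. *Grin2a* was at a log2FC of 0.52 (SE 0.21, interval 0.07 to 0.96, adjusted p = 0.227 by edgeR). *Grin2b* was at 0.46 (SE 0.17, interval 0.10 to 0.82, adjusted p = 0.194), and *Grin2c* at −0.28 (SE 0.11, interval −0.50 to −0.05, adjusted p = 0.204). DESeq2 and the likelihood ratio test also called none. *Grin3a* had 0.48, with a wide interval of −0.08 to 1.04, and *Grin1*, *Grin2d* and *Grin3b* had −0.08, −0.20 and −0.29. All non-addicted rats were numbered without N and all MA24 rats with N, so the kind of number and the group cannot be told apart here.

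Ratios of counts within a rat need no scaling between libraries and show how the subunit genes stood against each other. They depend on transcript length, so only their change between rats can be read, and they are described without a test. The *Grin2a* count was 1.81% to 3.65% of the *Grin1* count in MA12, 1.09% to 1.89% in non-addicted and 0.659% to 1.20% in MA24. MA12 and MA24 did not overlap, by a mean difference of −1.47 on the log2 scale for MA24 minus MA12. The *Grin2b* count was 2.19% to 3.71% of the *Grin1* count in MA12, 1.58% to 2.90% in non-addicted and 1.35% to 1.89% in MA24, and again MA12 and MA24 did not overlap. The *Grin2c* count was larger against *Grin1*, at 17.8% to 22.4% in non-addicted, 22.0% to 29.1% in MA12 and 21.6% to 24.8% in MA24. Ratios of *Grin2c*, *Grin2d*, *Grin3a* and *Grin3b* to *Grin1* overlapped in every pair of groups.

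The ratio between *Grin2a* and *Grin2b*, the 2 genes called between MA24 and MA12, was higher in MA12 than in the other groups. *Grin2a* counts were 82.6% to 101% of *Grin2b* counts in MA12 rats, 63.0% to 78.9% in non-addicted rats and 49.0% to 79.2% in MA24 rats. All 4 MA12 rats lay above all 8 other rats by a narrow margin, and the non-addicted and MA24 rats overlapped. The lowest MA12 ratio was 82.6% in rat 7N (271 against 328 counts). Highest among the other rats was 79.2% in rat 9N (240 against 303 counts). How often other pairs of genes separate these groups was not examined. Rat 14N had the lowest ratio and rat 21 the highest.

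**Figure D4:**
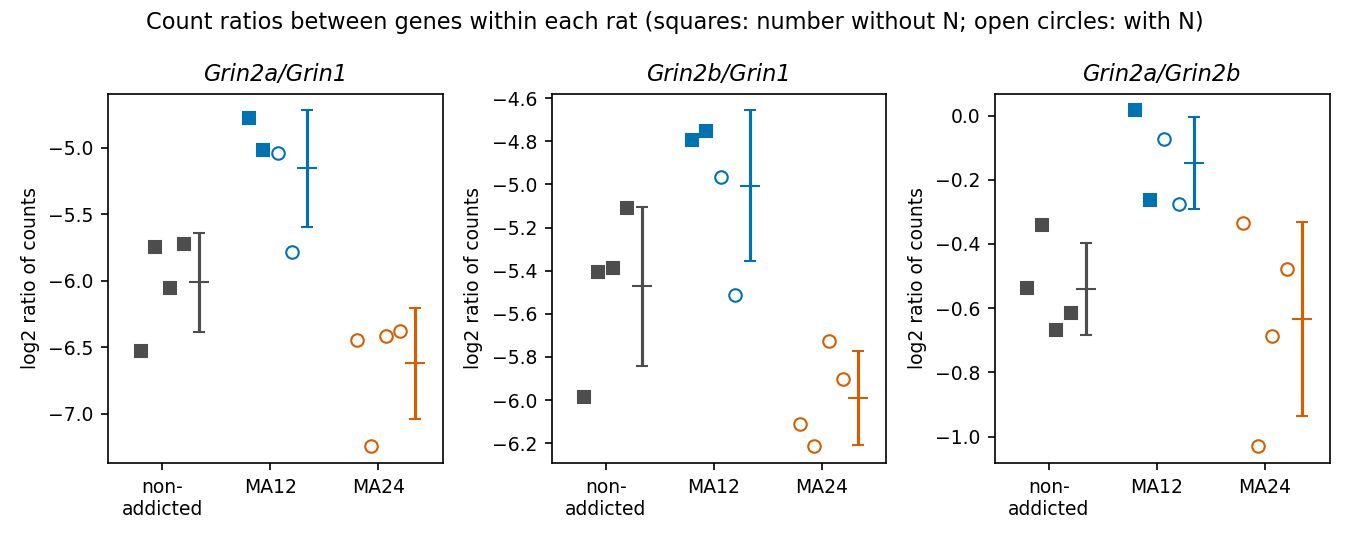
Log2 ratio of counts of *Grin2a* to *Grin1*, *Grin2b* to *Grin1* and *Grin2a* to *Grin2b* in each rat, by group, with mean and SD of 4 rats. MA12 rats lie above MA24 rats in all 3 panels, and above the non-addicted rats in the third.

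Across the 12 rats, *Grin2a* and *Grin2b* varied together (Pearson r = 0.94 of log2 CPM, and 0.86 after the group means were removed). The 12 points include the group differences above and share library depth, so this and the following correlations are descriptions. *Grin1* ran against *Grin2a* (r = −0.67), but after removal of the group means r was −0.07. *Grin3a* went with *Grin2a* at r = 0.68, and at 0.59 after removal of the group means.

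The genes most like each member over the 12 rats, among 12090 with a mean count of at least 10, were found by the same measure. For *Grin2a* they were *Twsg1*, a secreted modulator of BMP signaling (r = 0.96), *Extl3*, a glycosyltransferase of heparan sulfate synthesis (0.96), and *Ncoa2*, a nuclear receptor coactivator (0.95). *Twsg1* was also close to *Grin2b* (0.96), as was *Scube1* (0.945). Of all genes, 4.09% had r above 0.8 with *Grin2a* and 2.3% with *Grin2b*, so values past that limit were common. The named genes were picked for having the highest r among all of them. *Grin1* was most like *Dpf1* (0.97), *Eml2* (0.97) and *Ppp2r5b* (0.96), *Grin2c* most like *Arhgef7* (0.95), *Ctdsp1* (0.93) and *Eng* (0.93), and *Grin3a* most like *Tub* (0.95), *Fhod3* (0.94) and *Lrrc43* (0.94). *Grin2d* and *Grin3b* had fewer close matches, led by *Plvap* (0.83), *Gpr37l1* (0.815) and *Sox10* (0.80) for *Grin2d*, and by *Plec* (0.87), *Slc43a3* (0.85) and *Ikbke* (0.85) for *Grin3b*.

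The genes around the receptor were taken from 4 lists and read against the same background. Of the genes that make, move or degrade the coagonists glycine and D-serine, 8 of 11 were tested between MA24 and MA12, and none was called by edgeR or DESeq2, with 2 at an unadjusted p below 0.05, as had 23.5% of all genes tested. Among 5 genes of glutamate uptake and recycling, 1 was called lower, *Slc1a2*, the main glutamate transporter of astrocytes (log2FC −0.70, SE 0.19, adjusted p = 0.0457 by edgeR). Its groups overlapped, and it was not called in 14 of 18 other settings, DESeq2 included (adjusted p = 0.0828), nor without any 1 of rats 21, 31, 4N, 14N, 15N and 16N (adjusted p from 0.0595 to 0.107).

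The proteins that anchor and carry the receptor at the postsynaptic density gave 18 tested genes, and none was called by edgeR or DESeq2, with 9 at an unadjusted p below 0.05, against 23.5% of all genes. Their median log2FC was −0.27 against −0.04 for all genes, with 14 of 18 below 0, as were 55.3% of all genes. Groups did not overlap for 5 of 18, against 15.0% of all genes. Of these, *Lin7b* (0.55, adjusted p = 0.0165 by edgeR), *Cask* (−0.49, adjusted p = 0.0181) and *Dlgap2* (−0.50, adjusted p = 0.0389) passed the p threshold without reaching 1.5-fold, and they are named after their values were seen. *Cask* and *Lin7b* encode scaffold partners that carry GluN2B-containing receptors, and *Dlgap2* links PSD-95 to Shank proteins.

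Among signaling genes coupled to the receptor, 13 of 20 were tested between MA24 and MA12. Of the 13, 5 had an unadjusted p below 0.05 by edgeR, against 23.5% of all genes. Their median log2FC was −0.14, with 10 below 0 and 3 above, and 3 had groups that did not overlap, against 15.0% of all genes. Only 1 was called, lower, *Prkca*, the calcium-dependent protein kinase C alpha (log2FC −0.78, SE 0.17, adjusted p = 0.0204 by edgeR). Its groups did not overlap, and it was no longer called without rat 16N (−0.77, adjusted p = 0.0585), with only rats numbered with N (−0.60, adjusted p = 0.117) or with the kind of number as a covariate (−0.60, adjusted p = 0.157). In the comparisons with non-addicted rats, no gene of the 4 lists was called by edgeR or DESeq2, with 11 of 46 tested genes at an unadjusted p below 0.05 against MA12 (12.6% of all genes) and 10 of 47 against MA24 (17.5% of all genes).

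**Figure D5:**
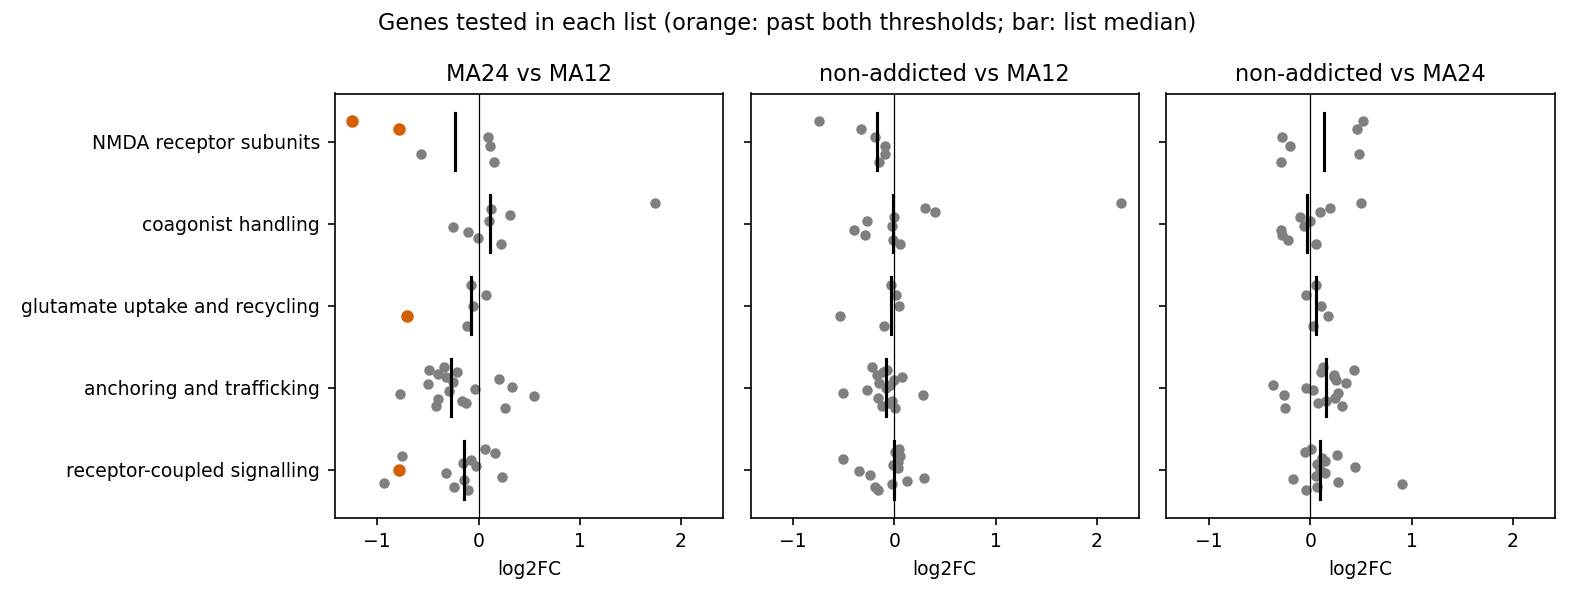
The log2FC of each tested gene of the subunit list and the 4 lists around the receptor (rows) in the 3 comparisons. Black bars are list medians, and orange points are genes past both thresholds. Such genes (*Grin2a*, *Grin2b*, *Slc1a2* and *Prkca*) occur in MA24 vs. MA12 and in neither of the other panels.

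Libraries held 17908962 to 23850284 counts, and rat 7N had the fewest. Markers of striatal projection neurons were present in every rat, with *Drd1* at 379 to 491 CPM and *Drd2* at 397 to 528 CPM. Among cortical excitatory neuron markers, *Slc17a7* was at 2.31 to 9.55 CPM. The 9 such markers found, of 10 listed, summed to 239 to 305 CPM, with *Lamp5* at group means of 232 to 248. In MA24 vs. MA12, *Slc17a7* had a log2FC of 1.04 (adjusted p = 0.0783 by edgeR). Of 5 tested cortical markers, 3 were above 0 and 2 below, and none was called. In bulk tissue, fewer cells of a type and less RNA per cell cannot be told apart.

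Several markers moved with the groups in which *Grin2a* and *Grin2b* differed. The 11 projection neuron markers summed to 14400 to 18400 CPM in MA12 and 16900 to 18700 in MA24. Of this, *Ppp1r1b* alone gave 5900 to 8550 and 8110 to 9920 CPM. Among the 8 tested, 3 had log2FC above 0 and 5 below 0, and none was called. For 3 of the 8 the groups did not overlap, against 15.0% of all genes. These were *Rgs9* (log2FC 0.33), *Pde10a* (−0.47) and *Pdyn* (−0.57), which differed in direction. The 6 astrocyte markers summed to 2330 to 3150 and 2900 to 3120 CPM, with 3 log2FC above 0 and 3 below. Of the 6, only the bicarbonate transporter *Slc4a4* was called, lower in MA24 (log2FC −0.59, adjusted p = 0.0329 by edgeR). Its call was kept in 9 other settings and lost in 9. The 8 thalamic and hypothalamic markers summed to 35.4 to 74.2 and 30.4 to 38.3 CPM, with *Pmch* at 0, and *Prkcd* was called lower (−0.95, adjusted p = 0.0196). All 6 tested ependymal and choroid markers had log2FC below 0, as had 55.3% of all genes tested, and none was called. The part of these markers in the *Grin2a* and *Grin2b* results was not tested.

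The non-addicted rats stood apart in further markers. Their 5 endothelial markers (of 6 listed) summed to 285 to 403 CPM, against 387 to 504 in MA12 and 460 to 508 in MA24, with *Kdr* called lower against both groups and *Cldn5* against MA24. The 7 oligodendrocyte markers summed to 12000 to 17700 CPM, against 12500 to 22200 in MA12 and 18500 to 21700 in MA24, and all 7 were below 0 in both comparisons with none called. Of all genes tested, 52.9% were below 0 against MA12 and 46.1% against MA24. The 7 ependymal and choroid markers summed to 43.2 to 107 CPM, against 27.9 to 76.1 and 30.1 to 48.4, and all 7 were above 0 against MA24, where *Foxj1* and *Rsph1* were called. *Pdyn*, the prodynorphin gene of projection neurons, was called lower against MA12. Their part in the subunit values of the non-addicted rats was not tested.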

How the data were processed

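Striatal RNA of 12 rats was sequenced as paired-end poly-A libraries. Per the study's methods and the submitters' processing notes, Cutadapt 1.18 removed adapters, STAR 2.7.0e placed the reads on rn6 and featureCounts gave counts per gene (HTSeq 0.12.4 is also named, with no role given). The authors deposited raw counts of 17337 genes without normalization. Strand and multi-mapping settings are not given in the sources used here, so antisense reads cannot be told apart.

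All 12 libraries were used, grouped by their labels, and each is a separate rat. Each comparison was fitted on its own 8 libraries. Genes were kept at mean counts above 4, TMM factors were computed, the 15% least variable genes on the log2 CPM scale were then dropped, and edgeR 4.0.16 (R 4.3.3; glmQLFit, glmQLFTest) was run with Benjamini-Hochberg adjustment over all genes tested. *Grin1* was removed by the variance filter in each pair and is reported from the fit without it. For the levels in log2 CPM, the prior count was 2. DESeq2 1.42.0 was an alternative. The scripts were tested on simulated data. No 2 libraries of a group agreed within sampling noise (chi-square per degree of freedom at least 9.72 over 18 pairs).

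The subunit genes and gene lists were chosen with earlier results of these data known. Outside the subunit genes, the text names the genes called in any comparison on the 4 lists around the receptor, and the 3 genes with the highest correlation with each member, of which 1 is not reported here. Other genes, among them called marker and clock genes, were named after their values were seen. Columns of other samples were not present.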

Additional observations from a re-analysis of the deposited data

How the results depend on the processing

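*Grin2a* and *Grin2b* were both called lower in MA24 than in MA12 with DESeq2, the likelihood ratio test, RLE size factors, every count and variance filter, all 3 groups in the fit, TMM after the variance filter (an alternative chosen after seeing the data) and each rat left out, a count of 2 throughout. The count was 1 with only rats numbered with N and 0 with the kind of number as a covariate (1635 of 10754 genes had an unadjusted p below 0.05 in that fit). The cause of the change was not tested. For non-addicted vs. MA12 the count was 1 (*Grin2a*) with DESeq2, the likelihood ratio test and only rats numbered without N, and 0 to 1 with 1 rat left out. For non-addicted vs. MA24 it was 0 in every setting run.

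Signs reversed for values near 0. *Grin2c* in MA24 vs. MA12 was −0.0433 with only rats numbered with N and −0.0454 with the covariate. In non-addicted vs. MA12, *Grin2d* was 0.0225 with only rats numbered without N and 0.0097 with the covariate. With 1 rat left out, *Grin3a* ran from −0.255 to 0.105 (0.0255 without non-addicted rat 13, 0.105 without MA12 rat 21) and *Grin3b* from −0.288 to 0.0523, its value without non-addicted rat 9. *Slc1a2* in non-addicted vs. MA24 ran from −0.0102, its value without MA24 rat 14N, to 0.403. In all, 164 of 174 subunit values under settings other than leaving out 1 rat kept direction and call, as did 142 of 146 with 1 rat left out. Most of these values belong to genes that were not called and stayed so. The 3 lost calls, all among the 174, were 1 of *Grin2a* and 2 of *Grin2b* in MA24 vs. MA12. Each call of a marker or clock gene was lost under at least 1 setting, and none of them reversed.

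The number of genes called of all tested also depended on the setting. For MA24 vs. MA12 it was 242, and 378 with the likelihood ratio test, 84 with only rats numbered with N, 28 with the covariate, 109, 150, 400, 103, 161 and 112 without rats 21, 31, 9N, 14N, 15N and 16N, respectively. For non-addicted vs. MA12 it was 13, and 79 by DESeq2, 91 by the likelihood ratio test, 4 under a minimum of 10 counts per library, 5 when low-variance genes stayed in, 47 with only rats numbered without N, 4 with the covariate and 4 to 69 with 1 rat left out. For non-addicted vs. MA24 it was 36, and 123 by DESeq2, 166 by the likelihood ratio test, 10 with no filters, 16 with TMM after the variance filter, 0 to 169 with 1 rat left out, and 0 by edgeR under the minimum of 10 counts, with low-variance genes kept and with the 3 groups fitted together (2146, 2229 and 2067 genes at an unadjusted p below 0.05).

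No paired analysis was possible because the groups share no rat numbers. *Grin3a*, with 49 to 174 counts per rat, had the largest standard errors of the 7 genes, 0.28, 0.25 and 0.27 in the 3 comparisons. How far depth rather than the spread between rats sets these errors was not separated.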
